A study of Mus musculus with 36 samples.

Results

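The 43 mitosis and spindle genes described here were taken by gene symbol from a table of 53465 genes measured in RAW 264.7 cells, a mouse macrophage-like tumour line that divides in culture. They are cyclins and regulators of Cdk1, the proliferation marker Mki67 with the topoisomerase Top2a, spindle checkpoint and anaphase genes, mitotic kinases, mitotic kinesins, kinetochore genes, spindle and cytokinesis genes, and the transcription factor Foxm1. Each symbol matched 1 row, and all 43 were among the 16988 genes that passed the filter on low counts. Wild-type cells were treated for 12 h in 12 groups of 3 libraries. A group received solvent and another lipopolysaccharide (LPS, a bacterial envelope molecule that macrophages sense through a Toll-like receptor) at 10 µg/mL. The hormone melatonin was given by itself in 5 groups (0.1 µM, 1 µM, 10 µM, 100 µM and 1 mM) and 30 min ahead of LPS in 5 more, at the same doses. The libraries of a group are called replicates by the labels, which do not say whether they came from separate cultures, so the spread behind each p-value may be technical only.

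Mitosis is driven by Cdk1 bound to cyclins A and B, which is switched on by Cdc25 phosphatases and held back by the kinase Wee1. The spindle, built with kinesin motors and microtubule-binding proteins, attaches to chromosomes at kinetochores. The spindle checkpoint delays separase and the anaphase-promoting complex until attachment is complete. Most of these genes are transcribed in G2 and M phase, when Foxm1 and the MuvB complex act at promoters through the cell cycle genes homology region (CHR) and NF-Y acts at CCAAT boxes. Their RNA in a culture therefore depends on how many cells are cycling as well as on the level in each cell, and in these bulk libraries fewer cells in mitosis and less RNA per cell cannot be told apart.

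Depth was 4203313 to 7590271 counts per library (median 6649254.5), and 3 counts, the limit for a gene with no count, corresponded to 0.388 to 0.599 CPM (counts per 1000000 counted reads, on scaled library sizes). Such floors cover counting error only. The cell label was checked against 9 matched macrophage markers of 10 listed, none at 0, whose summed level ran from 3321 to 15864 CPM. Markers of fibroblasts, T cells, B cells and epithelial cells summed to at most 9.96, 7.48, 1.36 and 1.67 CPM. Replicate libraries differed from each other by more than sampling noise, with a chi-square per degree of freedom of 8.95 to 37.7. The highest values, 37.7 and 37.1, were those of LPS with 1 mM melatonin replicate 3 against the other two of its group, which gave 14.4 against each other. That library also had the lowest depth.

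In 2 libraries the levels went against the labels. The library labelled melatonin 1 mM replicate 3 had a macrophage marker sum of 11578 CPM, beside 5056 and 4923 CPM in the other two of its group. The library labelled melatonin 1 µM replicate 1 had 4596 CPM, beside 12721 and 12786 CPM in the other two. The summed level of the 43 genes split the same way: 7549 CPM beside 5775 and 5585 CPM at 1 mM, and 5637 CPM beside 7459 and 7470 CPM at 1 µM. Labels were kept as given. Counts of members that rest on these libraries are given with both and without both, in a fit that tested 18347 genes because its filter on low counts then asked for fewer libraries.

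**Figure D1:**
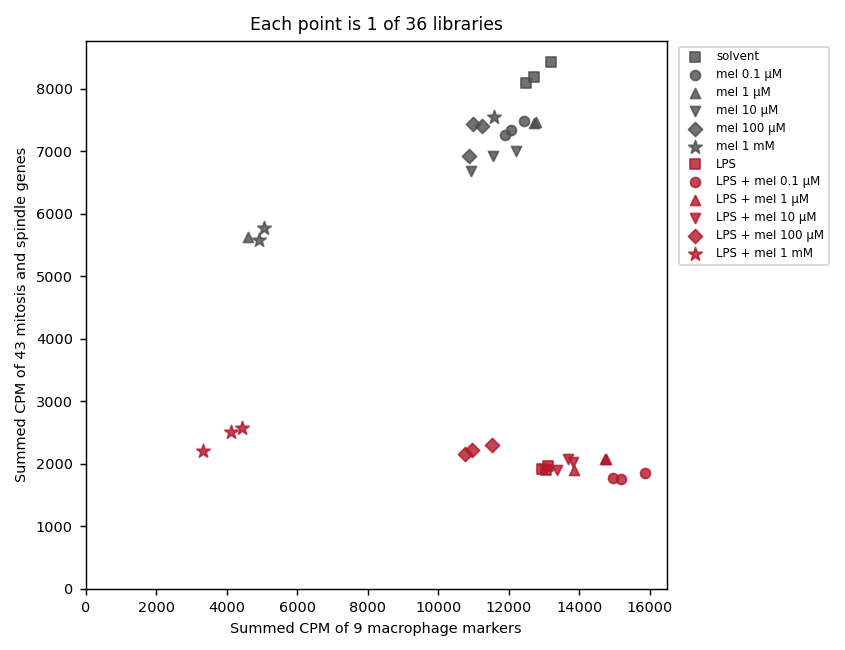
Summed CPM of the 43 genes (vertical axis) against summed CPM of 9 macrophage markers (horizontal axis), 1 point per library, with LPS groups in red and the others in grey. The 18 libraries with LPS lie between 1747 and 2578 CPM and the 18 without between 5585 and 8438 CPM. The libraries labelled melatonin 1 mM replicates 1 and 2 and melatonin 1 µM replicate 1 lie apart at the lower left of the grey points.

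Promoter sequences of the genes are shown first because the members moved together after LPS. RefSeq (GRCm38.p6) promoters of 300 bases, 250 before to 50 after the start, were found for 35 of the 43 genes (38 promoters). CHR was searched as TTTGAA or TTCGAA and the CCAAT box as CCAAT, each on both strands. Of the 38 promoters, 31 (81.6%) held a CHR match, beside 19.2% of all 32851 promoters of this length. A CCAAT match was in 78.9% against 37.4%, at least 2 CCAAT matches in 55.3% against 11.7%, and both motifs in 73.7% against 7.52%. Neither was found in 13.2% of member promoters and 50.9% of all. The motif letters do not overlap each other. Such matches describe the letters and show no binding.

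The stretches below end at the base before the RefSeq start, are written 5′ to 3′ on the gene's own strand, and have every CHR and CCAAT match, on either strand, in capitals. Mki67 and Top2a are shown because they were the most abundant of the promoter-matched genes and hold several matches. The Mki67 stretch is chr7:135716380-135716579 (minus strand), with 2 CHR and 3 CCAAT matches, and that of Top2a is chr11:99024190-99024439 (minus strand), with 4 and 6.
Mki67: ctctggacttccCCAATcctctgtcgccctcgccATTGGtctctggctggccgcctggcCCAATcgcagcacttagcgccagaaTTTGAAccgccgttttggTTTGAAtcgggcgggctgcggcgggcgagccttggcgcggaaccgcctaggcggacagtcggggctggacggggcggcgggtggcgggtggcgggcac
Top2a: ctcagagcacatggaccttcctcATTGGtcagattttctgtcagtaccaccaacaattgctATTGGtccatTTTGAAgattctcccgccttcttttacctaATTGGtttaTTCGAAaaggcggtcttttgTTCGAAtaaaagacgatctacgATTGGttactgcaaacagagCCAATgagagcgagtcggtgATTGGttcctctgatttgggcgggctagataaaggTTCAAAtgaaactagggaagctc
Cdk1 (chr10:69352913-69353032, minus strand), the motor gene Kif11 (chr19:37376262-37376381, plus strand), the ubiquitin-conjugating enzyme gene Ube2c (chr2:164769809-164769928, plus strand) and the separase gene Espl1 (chr15:102296173-102296292, plus strand) show the arrangement in which a CCAAT box lies upstream of a CHR near the start.
Cdk1: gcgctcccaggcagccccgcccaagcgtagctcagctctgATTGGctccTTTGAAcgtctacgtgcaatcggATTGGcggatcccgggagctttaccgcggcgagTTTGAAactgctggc
Kif11: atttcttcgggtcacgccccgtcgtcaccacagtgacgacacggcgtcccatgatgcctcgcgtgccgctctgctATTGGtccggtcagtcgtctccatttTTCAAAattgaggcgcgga
Ube2c: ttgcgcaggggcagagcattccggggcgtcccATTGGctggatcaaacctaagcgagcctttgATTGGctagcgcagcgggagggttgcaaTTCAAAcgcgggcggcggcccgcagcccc
Espl1: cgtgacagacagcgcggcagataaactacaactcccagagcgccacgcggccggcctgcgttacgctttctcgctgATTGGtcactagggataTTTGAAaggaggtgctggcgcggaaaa
Nuf2 (chr1:169531465-169531584, minus strand) and Birc5 (chr11:117849117-117849236, plus strand) are shown because neither holds a match in its 300 bases.
Nuf2: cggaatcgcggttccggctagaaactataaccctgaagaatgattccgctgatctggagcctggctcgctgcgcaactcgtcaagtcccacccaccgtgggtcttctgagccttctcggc
Birc5: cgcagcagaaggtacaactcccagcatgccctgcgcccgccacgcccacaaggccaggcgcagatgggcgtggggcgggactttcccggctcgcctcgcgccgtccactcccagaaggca

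**Figure D2:**
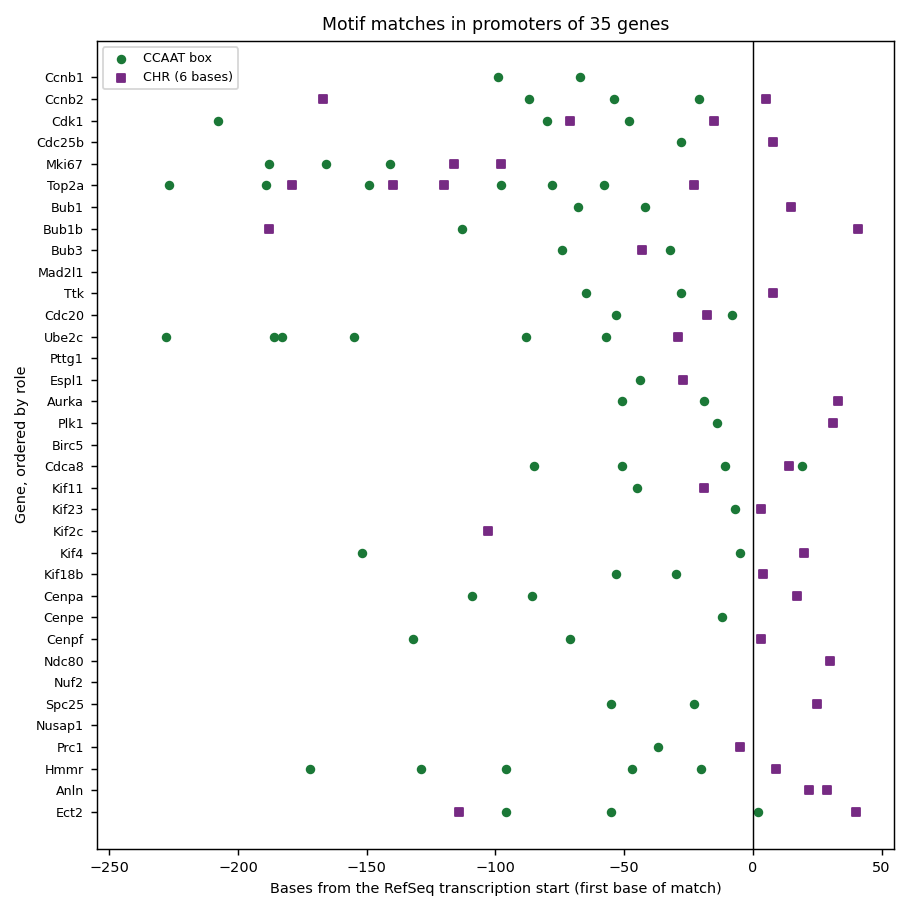
Positions of CHR (squares) and CCAAT (circles) matches by distance in bases from the RefSeq start, for the 35 genes with a promoter, 1 row per gene (for genes with several promoters, the first listed). Mad2l1, Pttg1, Birc5, Nuf2 and Nusap1 have no match, Top2a has 4 CHR and 6 CCAAT matches, and Ube2c has 1 and 6.

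LPS lowered nearly all of these genes. Against solvent, 40 of 43 fell, none rose, and the median log2 fold change was -1.75, beside -0.02 over all genes tested. Over all genes, 8.09% were lower and 16.5% were called in either direction (edgeR quasi-likelihood test, Benjamini-Hochberg adjusted p under 0.05). The summed level of the 43 genes was 8241 ± 177 CPM (SD, n = 3) in solvent and 1923 ± 30 CPM in LPS, which was 23.3% of the solvent level. The 3 solvent libraries ran from 8095 to 8438 CPM and the 3 LPS libraries from 1905 to 1958 CPM, so the groups did not overlap.

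**Figure D3:**
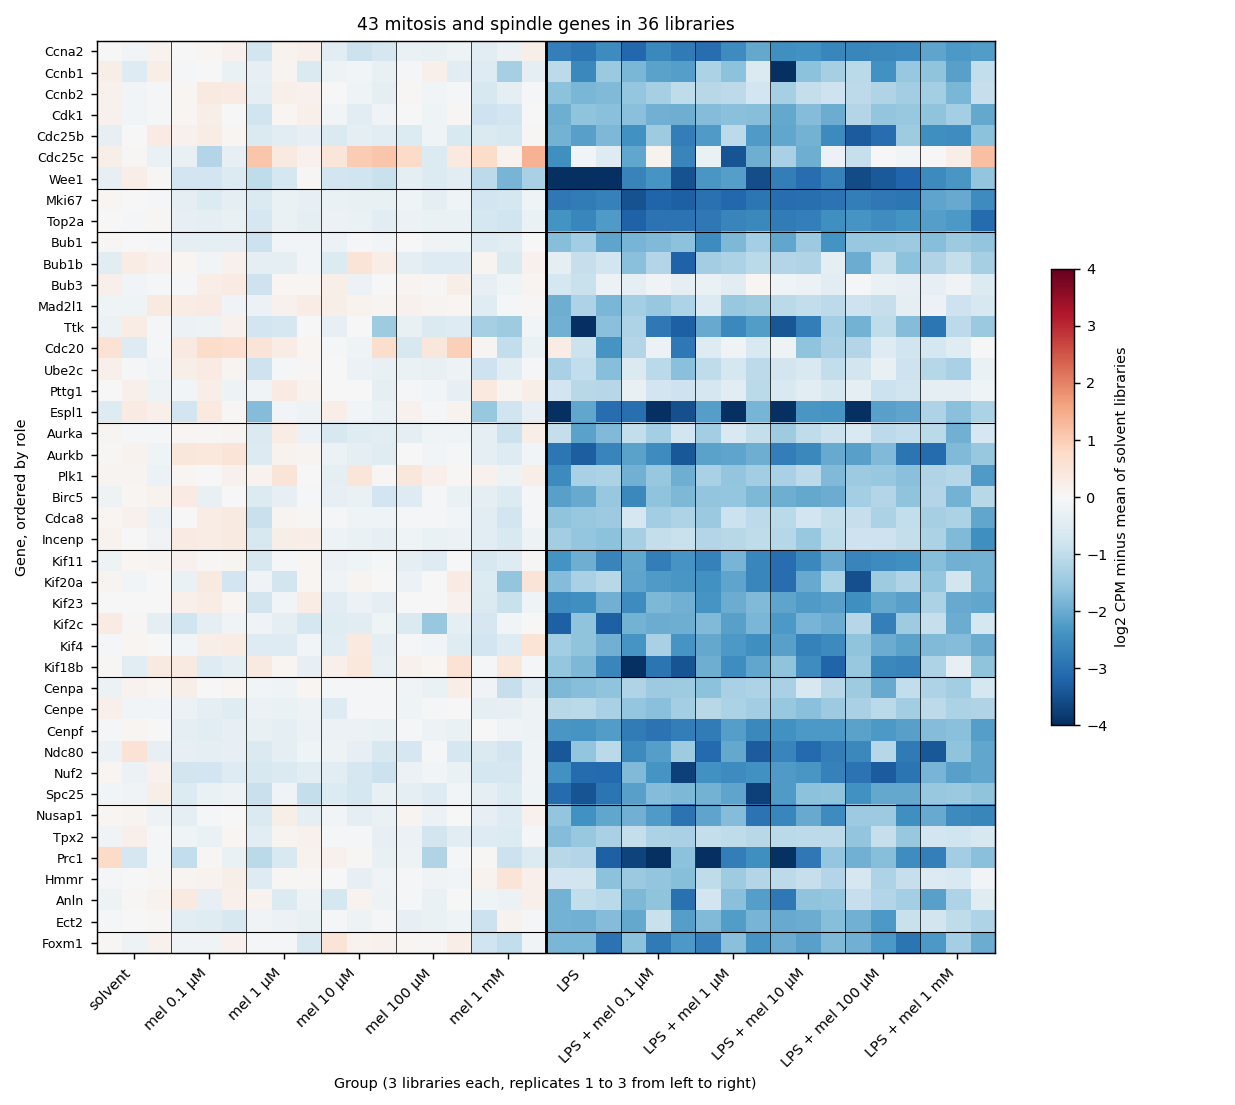
log2 CPM of each gene (rows, by role) in each of the 36 libraries (columns, 3 per group), as the difference from the mean of the solvent libraries, with blue lower and red higher and the colour scale ending at -4 and 4. The right side of the vertical line holds the 18 libraries with LPS.

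Among the cyclins and Cdk1 regulators, 6 of 7 fell. Ccna2, the cyclin of S and G2 phase, was 222, 210 and 246 CPM in the solvent libraries and 33.8, 29.8 and 39.5 CPM in LPS (log2 fold change -2.72 ± 0.21, SE; adjusted p = 1.5e-13, edgeR). Cdk1, the mitotic kinase itself, went from 389, 326 and 335 to 89.8, 115 and 108 CPM (-1.75 ± 0.20, adjusted p = 3.74e-09, edgeR). Wee1, the inhibitor of Cdk1, had the lowest fold change of all 43 members: it was 33.5, 50.7 and 43.7 CPM in solvent and 1.21, 2.04 and 1.54 CPM in LPS (-4.72 ± 0.44, adjusted p = 1.65e-11, edgeR). Cdc25c, an activator of Cdk1, was 7.48, 6.60 and 5.24 CPM in solvent and 0.910, 5.82 and 4.32 CPM in LPS, and did not pass (-0.80 ± 0.73, adjusted p = 0.531, edgeR). The cyclin B gene Ccnb1 fell by 1.63 on the log2 scale (adjusted p = 0.00536, edgeR), but is uncertain. Its processed copy Ccnb1-ps, at 8213 counts in all beside 5499, did not pass (-0.42, adjusted p = 0.365, edgeR), and their sum was 77.2 ± 13.8 CPM in solvent and 40.9 ± 15.6 CPM in LPS.

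Mki67, the antigen of dividing cells, and Top2a, which untangles DNA, had the highest counts of the members. Mki67 was 2379, 2214 and 2185 CPM in solvent and 308, 328 and 347 CPM in LPS (log2 fold change -2.79 ± 0.13, adjusted p = 4.52e-20, edgeR). Top2a was 1224, 1187 and 1247 CPM in solvent and 230, 200 and 256 CPM in LPS (-2.42 ± 0.16, adjusted p = 7.47e-16, edgeR). No LPS library overlapped the solvent libraries for either gene. Per length, in the authors' FPKM values, Mki67 (221 ± 11) was highest of the members in solvent, followed by Incenp (146 ± 15) and Top2a (133 ± 3.7). In LPS, Incenp (50.3 ± 4.7) stood above Mki67 (31.7 ± 1.9).

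Of the spindle checkpoint and anaphase genes, 7 of 9 fell, with a median of -1.31. Espl1, the separase that cuts cohesin, went from 15.6, 28.3 and 26.1 CPM to 0.455, 5.09 and 2.47 CPM (-3.11 ± 0.76, adjusted p = 0.00216, edgeR). The checkpoint kinase gene Ttk went from 19.9, 28.6 and 22.6 CPM to 5.92, 0 and 7.09 CPM (-2.45 ± 0.67, adjusted p = 0.00704, edgeR), where a count of 0 allows up to 0.437 CPM. Mad2l1, a checkpoint inhibitor of Cdc20, fell by 1.67 on the log2 scale, Bub1, a checkpoint kinase, by 1.71, and the securin Pttg1 by 1.02. Bub3, with 105, 85.4 and 86.1 CPM in solvent and 55.7, 49.3 and 77.4 CPM in LPS, had the weakest change of those that passed (-0.60 ± 0.20, adjusted p = 0.0312, edgeR). Bub1b (-0.70 ± 0.34, adjusted p = 0.163, edgeR) and Cdc20, the activator of the anaphase-promoting complex (-0.68 ± 0.52, adjusted p = 0.431, edgeR), did not pass.

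All 6 mitotic kinases and chromosomal passenger genes fell, with a median of -1.58. Aurkb, the passenger kinase, was 64.2, 68.8 and 54.7 CPM in solvent and 8.19, 6.11 and 9.71 CPM in LPS (-2.96 ± 0.33, adjusted p = 1.44e-09, edgeR). Its partners Birc5, Cdca8 and Incenp fell by 1.89, 1.54 and 1.52 on the log2 scale. Plk1, which acts at centrosomes and kinetochores, fell by 1.61, and Aurka, the centrosome kinase, by 1.56.

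The 6 kinesin motors and the 6 kinetochore genes all fell, with medians of -2.14 and -2.07. Kif11, the motor that pushes spindle poles apart, went from 90.6, 111 and 112 CPM to 19.7, 26.3 and 16.5 CPM (-2.32 ± 0.25, adjusted p = 1.01e-09, edgeR). Kif2c, a microtubule depolymerase, fell by 2.58 and Kif23, a motor of cytokinesis, by 2.28. Spc25, a subunit of the Ndc80 complex that binds microtubules, went from 49.3, 47.6 and 62.5 CPM to 5.92, 4.51 and 6.63 CPM (-3.22 ± 0.34, adjusted p = 3.79e-10, edgeR). Its partners Nuf2 and Ndc80 fell by 2.87 and 1.83. Cenpf, a large kinetochore protein, went from 836, 905 and 843 CPM to 173, 168 and 181 CPM (-2.31 ± 0.13, adjusted p = 8.25e-18, edgeR), and Cenpe, the kinetochore motor, fell by 1.17.

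The 6 spindle assembly and cytokinesis genes fell, with a median of -1.62 and the lowest value in Nusap1, which bundles spindle microtubules (-2.00 ± 0.28). Hmmr, a spindle-associated receptor protein, was 86.8, 93.0 and 94.7 CPM in solvent and 53.9, 54.3 and 29.0 CPM in LPS, the smallest fall of the 6. Tpx2, which activates Aurka on the spindle, was 141, 177 and 150 CPM in solvent and 46.1, 53.6 and 62.8 CPM in LPS (-1.53 ± 0.18, adjusted p = 1.58e-08, edgeR). Foxm1, the transcription factor of the G2 programme, was 69.0, 57.5 and 75.5 CPM in solvent and 18.7, 18.8 and 8.33 CPM in LPS (-2.14 ± 0.32, adjusted p = 1.22e-06, edgeR). Exons of Kif20a (29.3%), Ube2c (22.8%) and Kif4 (15.1%) share sequence positions with a gene on the opposite strand, and the strand setting of the counting is not given in the sources used here, so reads of Cdc23, Tnnc2 and Pdzd11 cannot be told apart from theirs. Tnnc2 had 0 counts. The same holds for Ccna2 (12.5%, with Exosc9), Prc1 (11.1%, with Rccd1) and Cdc25c (12.7%), whose partner Gm3550 had 4037 counts in all beside 1572. Cdc20 shares 2.84% with Elovl1, which had 21440 counts beside 3414, and Plk1, Cdca8, Nusap1 and Cdc25b share 2.47% to 7.09% with such a gene.

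The fall was seen with and without promoter motifs. Of 25 members with a CHR and a CCAAT match, 23 fell (median -1.75). All 5 with 1 of the motifs fell (median -1.63), and so did the 5 with neither, Nuf2, Nusap1, Mad2l1, Pttg1 and Birc5 (median -1.89). Among other tested genes, 61 of 312 with a CHR and at least 2 CCAAT matches were lower (19.6%), a stricter class than that of the 25 members. Of other tested genes with neither motif, 402 of 4718 were lower (8.52%), and of all other tested genes with a promoter 987 of 9838 (10.0%).

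Other gene lists of the cell cycle were read against the same background, 8.09% of all genes lower and 8.4% higher after LPS. In condensin, which compacts chromosomes, 8 of 8 genes were lower (Ncapg2 -2.23, Smc4 -1.55), and in DNA replication 23 of 30 (median -1.60). Of the E2F, RB and MuvB regulators, 11 of 19 were lower, among them E2f8 (-4.19) and Mybl2 (-3.11), a MuvB partner. Other mitotic kinesins were lower in 5 of 6, such as Kif20b (-2.37), while of 13 non-mitotic kinesins none was lower and 2 were higher, Kif3b (0.96) and Kif1c (0.72). Of 17 core genes and regulators of the anaphase-promoting complex, 2 were lower, Fbxo5 (-3.82), an inhibitor of it, and Anapc5 (-1.12), a share close to that of all genes. Among 12 tested G1 cyclins, kinases and inhibitors, 7 were lower and 2 higher, with Cdk6 (1.24) and Cdkn1a (0.45), the p21 inhibitor, the 2 that rose. Cohesin genes were lower in 8 of 14 (Cdca5 -2.35) and higher in 1, Wapl (0.68), and other centromere and kinetochore genes lower in 15 of 33 (Knl1 -2.39) and higher in 1, Zwint (1.23). Wapl and Zwint were named after their values were seen, as the only members of their lists that rose, each a share below that of all genes.

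Members were also lower with LPS at each dose of melatonin, in comparisons that share no libraries with LPS against solvent or with each other. Against melatonin alone at the same dose, 41 members were lower at 0.1 µM (7.71% of all genes), 38 at 1 µM (7.4%) and 37 at 10 µM (7.65%). At 100 µM 35 were lower (7.72%), and at 1 mM 26 (4.75%). No member was higher in any of the 5. Median log2 fold changes were -1.87, -1.67, -1.78, -1.40 and -1.10 in that order. Without the 2 libraries against their labels, the counts were 37 at 1 µM (5.87% of all genes) and 21 at 1 mM (3.65%), with medians of -1.72 and -0.90.

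In all 6 comparisons, 24 of 43 members (55.8%) were lower, beside 354 genes (2.08%) of those tested. The 24 hold Mki67, Top2a, Ccna2, Ccnb2, Cdk1, Cdc25b, Bub1, Foxm1, Aurkb, Birc5, Cdca8, Incenp, Plk1, Kif11, Kif23, Kif4, Cenpe, Cenpf, Ndc80, Nuf2, Spc25, Nusap1, Hmmr and Anln. A further 9 were lower in 5 comparisons, 5 in 4, and Ube2c and Pttg1 in 3. Bub3 and Cdc20 were lower in 1, and Cdc25c in none. In 21 members (48.8%) all 18 libraries with LPS lay below all 18 without, beside 296 genes (1.74%) of those tested. Without the 2 libraries against their labels, 21 members were lower in all 6 comparisons (1.67% of all genes), and in 21 members all 18 libraries with LPS lay below the other 16 (1.78% of all genes). For Mki67 the highest library with LPS had 554 CPM and the lowest without had 1336 CPM.

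At 1 mM the response to LPS was smaller for several members. The summed level was 2425 ± 203 CPM in LPS with 1 mM melatonin, 29.4% of solvent, against 1923 ± 30 CPM in LPS. For melatonin alone it was 6303 ± 1084 CPM (76.5% of solvent), and 5680 CPM (68.9%) over the 2 libraries left without replicate 3. By role, the members lower at 1 mM were 4 of 7 cyclins and Cdk1 regulators, both of Mki67 and Top2a, 2 of 9 checkpoint and anaphase genes, 6 of 6 kinases and passenger genes, 3 of 6 kinesins, 5 of 6 kinetochore genes, 3 of 6 spindle genes, and Foxm1. Without the 2 libraries against their labels the counts in that order were 4, 2, 1, 5, 3, 4 and 2, and Foxm1 did not pass. The interaction, the LPS response at 1 mM minus that without melatonin, passed the test for 4 members, all in the direction of a smaller fall (median over members 0.62, beside 0.02 over all genes, with 0.63% of all genes called higher). It rests in part on LPS with 1 mM melatonin replicate 3, the library that stands apart from its group, in which Incenp was 87.0 CPM beside 197 and 140 CPM and Top2a 145 CPM beside 264 and 247 CPM. Without that library 7 members passed, again with a smaller fall (0.714% of all genes): Wee1 (3.61), Spc25 (2.05), Mki67 (1.24), Kif23 (1.20), Tpx2 (1.09), Top2a (0.73) and Cenpf (0.73).

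**Figure D4:**
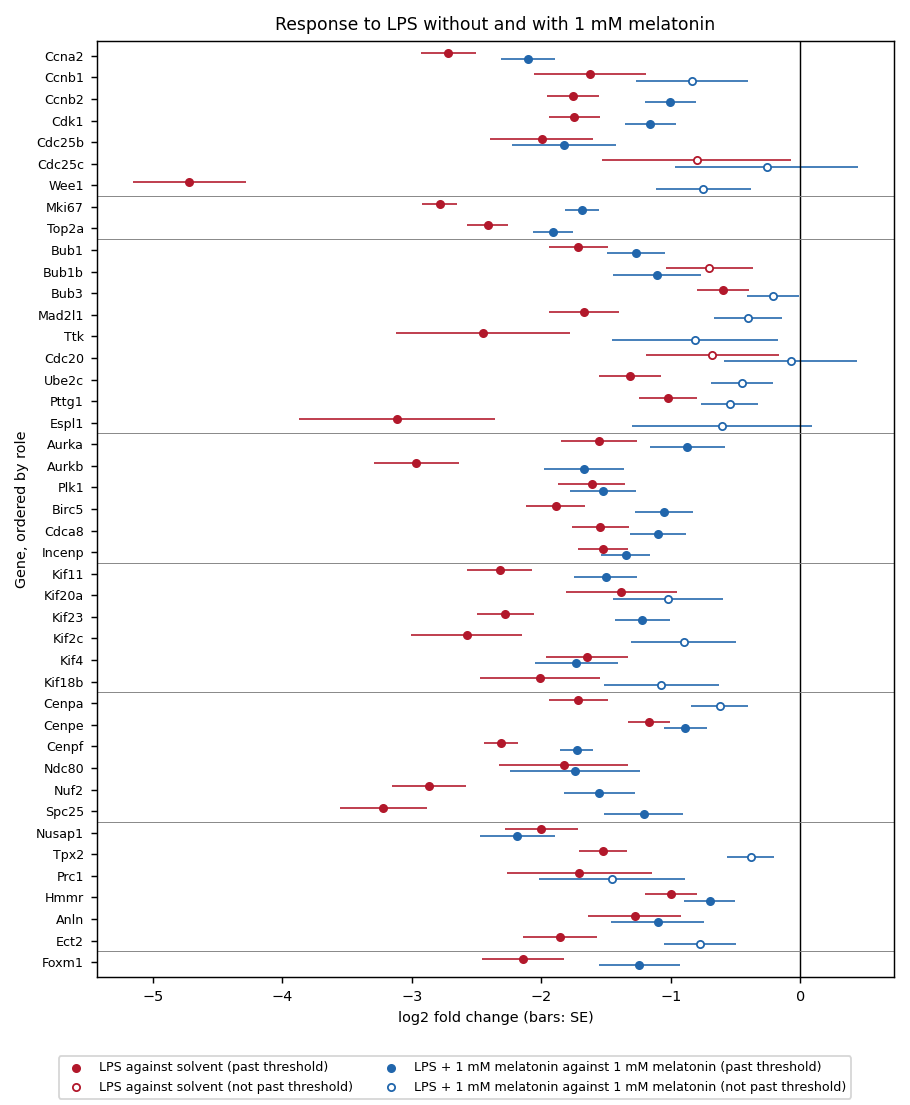
log2 fold change with its SE for each gene, by role, for LPS against solvent (red) and LPS with 1 mM melatonin against 1 mM melatonin (blue), with filled points past the threshold. Wee1, Mki67, Spc25 and Tpx2 show differences between the colours that passed the interaction test, at 3.97, 1.10, 2.01 and 1.14.

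Wee1 had the largest interaction of the members. It was 20.1, 11.3 and 17.0 CPM with 1 mM melatonin alone and 6.90, 8.06 and 13.97 CPM with LPS added, so the groups did overlap, whereas LPS alone gave 1.21 to 2.04 CPM. The response was -0.75 ± 0.37 at 1 mM (adjusted p = 0.228, edgeR; -0.71 without the 2 libraries against their labels), and the interaction was 3.97 ± 0.56 (adjusted p = 7.69e-06, edgeR). In LPS alone its lowest library held 8 counts, so its fold change rests on few reads. Spc25, at 41.0, 36.3 and 46.8 CPM with 1 mM melatonin and 18.1, 18.6 and 17.0 CPM with LPS, had an interaction of 2.01 ± 0.44 (adjusted p = 0.00713, edgeR). Mki67, at 1336, 1381 and 1992 CPM with 1 mM melatonin and 519, 554 and 392 CPM with LPS, had an interaction of 1.10 ± 0.18 (adjusted p = 0.000145, edgeR). Tpx2, at 109, 107 and 148 CPM and 91.5, 88.8 and 99.6 CPM, had 1.14 ± 0.26 (adjusted p = 0.00869, edgeR).

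Without the 2 libraries against their labels, 7 members passed the interaction at 1 mM (1.07% of all genes). They were Wee1 (4.01), Spc25 (2.11), Nuf2 (1.52), Mki67 (1.31), Tpx2 (1.31), Kif23 (1.27) and Cdk1 (0.91). The libraries with 1 mM melatonin also held lower macrophage marker sums, 3321 to 4446 CPM with LPS, than the other LPS libraries (10776 to 15864 CPM), and the part of this in the interaction was not tested. At the other doses no member passed the interaction in edgeR, beside 0.418% of all genes for 100 µM, 0.0235% for 10 µM, 0.0471% for 1 µM and 0.0118% for 0.1 µM. At 1 µM none passed without the 2 libraries either (0.0491%). An unadjusted p under 0.05 was found for 10, 12, 7 and 6 members in that order of doses, beside 10.6%, 8.8%, 8.25% and 7.14% of all genes. DESeq2 called 1, 2, 0 and 1 members of the 37, 43, 21 and 43 to which it gave an adjusted p, beside 2.5%, 0.456%, 0.628% and 0.0996% of all such genes.

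**Figure D5:**
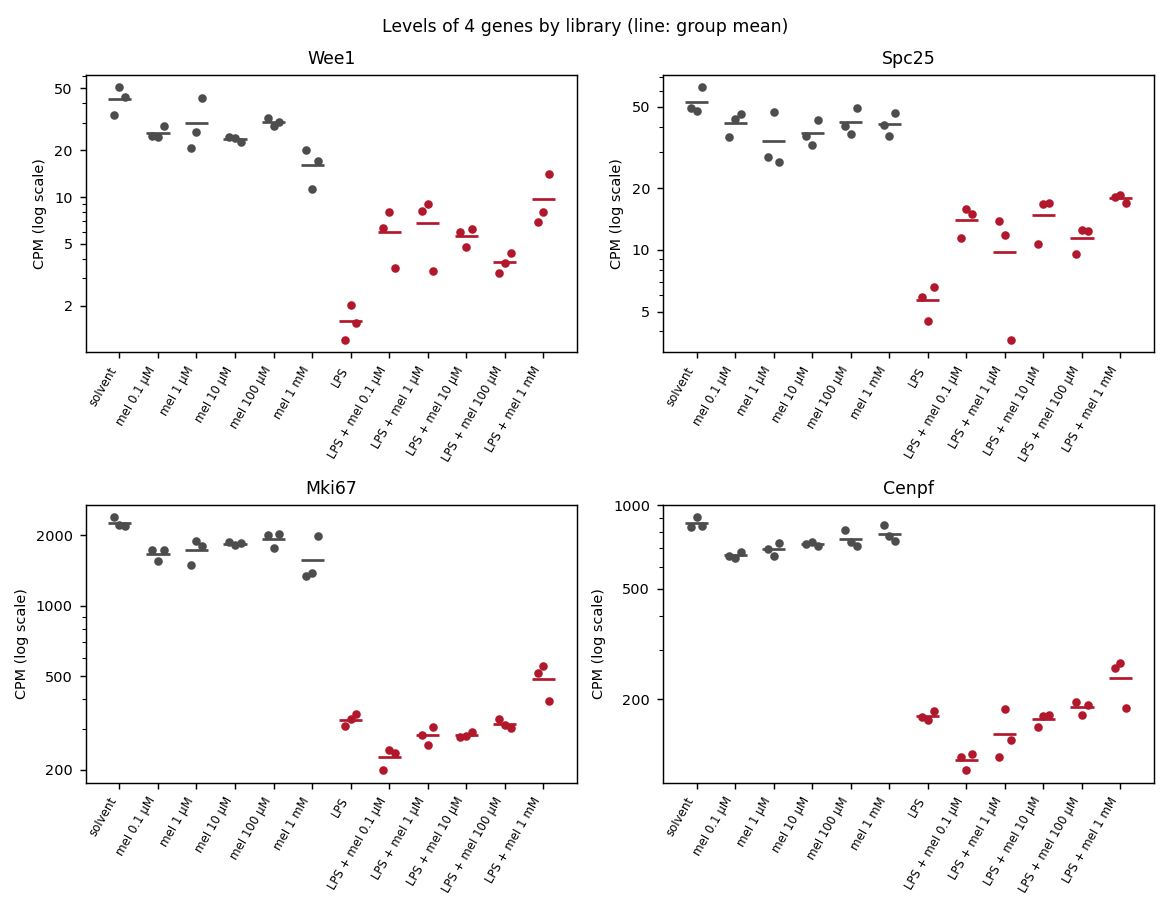
CPM on a log axis of Wee1, Spc25, Mki67 and Cenpf in the 3 libraries of each of 12 groups (points; lines are group means), with LPS groups in red. Wee1 and Spc25 are lowest in LPS alone on average, and Mki67 and Cenpf with LPS are lowest at 0.1 µM melatonin and highest at 1 mM.

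With LPS as the reference, 8 members were higher at 1 mM melatonin (2.84% of all genes), and 11 (3.03%) without the 2 libraries. Neither of those libraries is in the groups compared, so this change came through the shared fit and its filter. The 8 were Wee1 (2.57 ± 0.42), Spc25 (1.65 ± 0.33), Kif2c (1.42 ± 0.42), Mad2l1 (1.11 ± 0.27), Tpx2 (0.78 ± 0.18), Pttg1 (0.71 ± 0.22), Mki67 (0.58 ± 0.13) and Cenpf (0.46 ± 0.13). All 5 comparisons with LPS share its 3 libraries, so values for the other doses are given side by side. At 0.1 µM, Wee1 (1.88) and Spc25 (1.31) were higher (0.653% of all genes), and Mki67 (-0.53), Top2a (-0.63) and Cenpf (-0.52) were lower (0.706%). Wee1 (1.81) and Spc25 (1.38) were higher at 10 µM (0.194%) and Wee1 (2.08) at 1 µM (0.294%). At 100 µM none passed in edgeR (1.18% of all genes in either direction), 12 had an unadjusted p under 0.05 (12.4% of all genes), and DESeq2 called 2 of 43 (2.98% of all genes with an adjusted p). These counts rest on the pooled spread and on single libraries: with the compared groups only, 1 member passed at 1 mM and 0 at 10 µM. Without LPS with 1 mM melatonin replicate 1, 5 passed at 1 mM, and at 10 µM 0 passed with any of the 6 libraries left out. At 0.1 µM, 0 passed without the melatonin-treated replicate 2, 1 without the melatonin-treated replicate 1 or without LPS replicate 1 or 3, and 2 without LPS replicate 2. The Wee1 call at 1 µM was lost without LPS replicate 1 or the melatonin-treated replicate 2, and 1 member passed at 100 µM without LPS replicate 2. Counts with the compared groups only or with a library left out have no share of all genes here. They show only how the number of calls moved.

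Wee1 and Spc25 by library show how the LPS groups differ. With LPS, Wee1 was 6.36, 7.98 and 3.51 CPM at 0.1 µM melatonin, 8.15, 8.96 and 3.33 CPM at 1 µM, 5.94, 4.80 and 6.23 CPM at 10 µM and 3.23, 3.78 and 4.40 CPM at 100 µM. All of these lay above the 3 libraries with LPS alone, and below every library without LPS, the lowest of which had 11.3 CPM. Spc25 with LPS was 11.4, 15.8 and 14.97 CPM at 0.1 µM, 13.9, 11.9 and 3.64 CPM at 1 µM, 10.8, 16.7 and 16.9 CPM at 10 µM and 9.54, 12.5 and 12.4 CPM at 100 µM. Replicate 3 at 1 µM lay below all 3 libraries with LPS alone, and the others lay above them. Wee1 lies at chr7:110122046-110143286 and Spc25 at chr2:69193895-69206194 in mm10, with Mki67 at chr7:135689784-135716361 and Tpx2 at chr2:152847964-152895321.

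Across the 5 doses given with LPS, 6 members rose with log10 dose (2.38% of all genes). Kif18b, a depolymerizing motor, rose by 0.57 on the log2 scale per 10-fold dose, Hmmr by 0.27, Mki67 by 0.24, Cenpf by 0.23, Mad2l1 by 0.21 and Top2a by 0.14 (adjusted p = 8.87e-08 for Mki67 and 0.0234 for Mad2l1, edgeR). Top2a had 129, 157 and 157 CPM at 0.1 µM and 264, 247 and 145 CPM at 1 mM, so those groups did overlap. Kif18b had 0.318, 2.77 and 1.83 CPM at 0.1 µM and 9.81, 18.3 and 7.38 CPM at 1 mM, with no overlap. The lowest of these libraries held 2 counts of Kif18b, so its slope rests on few reads. Cenpf was 124, 111 and 127 CPM at 0.1 µM, 124, 185 and 142 CPM at 1 µM, 159, 174 and 175 CPM at 10 µM, 196, 175 and 191 CPM at 100 µM and 260, 269 and 186 CPM at 1 mM. Hmmr, whose protein binds the spindle, was 32.8, 30.1 and 27.7 CPM at 0.1 µM and 62.8, 59.3 and 85.6 CPM at 1 mM. Foxm1 did not follow dose: its group means with LPS ran from 13.1 ± 4.5 CPM at 100 µM to 18.6 ± 6.3 CPM at 1 mM, within the spread of single libraries.

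Melatonin alone moved few members past the threshold, but their summed level was below solvent at each dose. At 100 µM and 10 µM it was 7257 ± 288 and 6874 ± 167 CPM (88.1% and 83.4% of solvent). At 1 µM and 0.1 µM it was 6855 ± 1055 and 7364 ± 117 CPM (83.2% and 89.4%), and 7465 CPM (90.6%) at 1 µM without replicate 1. The highest library with melatonin alone had 7549 CPM and the lowest solvent library 8095 CPM. All doses share the solvent libraries, and the shift of the sum was not tested. The sum follows the most abundant members and does not show a fall in each of them. At 0.1 µM, Mki67 was 1669 ± 103 CPM beside 2259 ± 105 CPM in solvent. Incenp went the other way, with 597 ± 8 CPM beside 478 ± 50 CPM. At 1 mM, Mki67 was lower than in solvent (-0.53 ± 0.13, adjusted p = 0.0409, edgeR; 0.318% of all genes), and the median over members was -0.34. Without the 2 libraries, 5 members were lower (1.98% of all genes): Wee1 (-1.44), Top2a (-0.74), Kif23 (-0.73), Mki67 (-0.73) and Cdk1 (-0.81). At 100 µM, 10 µM, 1 µM and 0.1 µM no member passed in edgeR (0.0824%, 0.0824%, 0.147% and 0.341% of all genes), with 1, 5, 5 and 6 members at an unadjusted p under 0.05, beside 5.97%, 6.82%, 8.29% and 9.3% of all genes. DESeq2 called 0, 0, 0 and 2 of the 43, 43, 42 and 28 members with an adjusted p, beside 0.171%, 0.315%, 1.07% and 3.66% of all such genes. At 1 µM none passed without the 2 libraries either (0.501% of all genes). Incenp, the scaffold of the passenger complex, was the only member whose level fell with dose without LPS (-0.17 ± 0.04 per 10-fold dose, adjusted p = 0.0356, edgeR; 0.5% of all genes). In solvent, which the slope does not include, it was 529, 475 and 430 CPM. At 0.1 µM it was 597, 588 and 605 CPM, above every solvent library. It was 304, 558 and 578 CPM at 1 µM, and 410, 398 and 382 CPM at 10 µM. At 100 µM it was 420, 395 and 405 CPM, and at 1 mM 359, 311 and 411 CPM. Without the 2 libraries, 7 members fell with dose (3.12% of all genes), with Incenp among them (-0.22) and Cdk1 (-0.20), Cdca8 (-0.19), Kif23 (-0.19), Ube2c (-0.19), Ccnb2 (-0.17) and Tpx2 (-0.14). The Mki67 call at 1 mM was lost without any of the 3 solvent libraries or of the first and second 1 mM libraries, where 0 members passed, and 3 members passed without 1 mM replicate 3. These counts with a library left out also have no share of all genes beside them. The Incenp slope was lost in 9 of 17 alternatives.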

How the data were processed

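RNA was measured in 36 libraries, 12 groups of 3, grouped by their labels. The counts per gene were deposited by the authors as raw whole numbers, and the submitters' processing notes name cutadapt, featureCounts and mm10; aligner, annotation, strand setting and tool versions are not given in the sources used here. A second deposited table gives the authors' FPKM values and gene symbols; FPKM was used only to compare levels per length. Columns were mapped to samples by name, with none unmapped. Pseudogenes held 25.7% to 28.3% of counts as group means, so members with processed copies are less certain. Beside Ccnb1-ps, the copies Ccnb2-ps and Kif4-ps had 625 and 246 counts in all. Ccnb2 and Kif4 themselves had 19765 and 6418.

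The test was edgeR 4.0.16 (R 4.3.3; filterByExpr, TMM, quasi-likelihood fit over all 36 libraries, factors 0.914 to 1.19, common dispersion 0.266), two-sided, Benjamini-Hochberg over 16988 genes, threshold 0.05. SE is the absolute log2 fold change over the square root of F. CPM uses TMM-scaled library sizes, with a prior count of 2 for log2 values. Alternatives were DESeq2 1.42.0, its size factors in edgeR, no filter, a replicate block, the compared groups alone, leaving out each library, and leaving out the 2 libraries against their labels (for the counts over all 6 comparisons, chosen after seeing the data). The fit was tested on simulated counts. All members may be named, with up to 4 genes per other list by smallest adjusted p, and Cdkn1a and Mybl2. The members and lists were chosen with earlier results of these data known. Promoters came from RefSeq.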

Additional observations from a re-analysis of the deposited data

Results flagged for a closer look

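The effect of LPS differed between cells with 1 mM melatonin and cells without melatonin for 4 members, by the interaction term of the edgeR fit (adjusted p under 0.05 over all genes). Wee1 differed by 3.97 on the log2 scale, Spc25 by 2.01, Tpx2 by 1.14 and Mki67 by 1.10, each with a smaller fall at 1 mM. For Wee1 and Spc25 the estimated fall was larger without melatonin than at any dose. Over the comparisons of LPS at matched melatonin, Wee1 had a median of -2.12 (-4.72 to -0.75). Spc25 had a median of -1.68 (-3.22 to -1.21). At the other doses neither passed the interaction in edgeR, so these tests do not show whether the difference is particular to 1 mM. Wee1, Spc25 and Mki67 passed under all 18 alternatives run for them, and Tpx2 under 17 of 18. The library labelled melatonin 1 mM replicate 3 enters each value, and without it and melatonin 1 µM replicate 1 the values were 4.01, 2.11, 1.31 and 1.31. No cause was tested.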

How the results depend on the processing

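Over 248 single-gene results and 2857 alternative values, 2639 stayed on the same side of the threshold, 218 no longer passed and 0 reversed. Calls that members gained under an alternative, given below as counts, are not in this tally, so it measures only how calls were kept or lost. Members called against LPS or solvent changed where few passed. Shares of all genes are given in brackets for DESeq2 and for the fit without the 2 libraries. The other counts of this section have no such share and show only how the number of calls moved. At 1 mM melatonin against solvent, 1 member was called, but 2 with no filter, 5 without the 2 libraries against their labels (1.98% lower) and 0 with the compared groups only. DESeq2 called 2 of the 28 members with an adjusted p (3.33%). The compared groups only also called 3 at 10 µM and 4 at 0.1 µM against solvent, and DESeq2 2 of 28 at 0.1 µM (3.66%). Against LPS, the compared groups only called 1 at 1 mM, 2 at 100 µM, 0 at 10 µM and 3 at 0.1 µM. No filter called 2 at 100 µM, 1 at 10 µM and 2 at 1 µM. DESeq2 called 2 at 100 µM (2.98%) and 2 at 1 µM (2%). For the interaction, 7 members were called at 1 mM without the 2 libraries (1.07% higher) and 9 with DESeq2 (3.07%). At 100 µM, 1 was called with no filter or DESeq2 (2.5%) and 2 with the compared groups only. At 10 µM, 1 was called with no filter, 2 with DESeq2 (0.456%) and 3 with the compared groups only. At 1 µM, 1 was called with size factors or no filter, and at 0.1 µM 1 with DESeq2 (0.0996%) or the compared groups only. The dose slope without LPS had 7 without the 2 libraries (3.12% lower).

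Leaving out single libraries gave 36 to 40 members for LPS, 0 to 3 for 1 mM melatonin, and, for LPS with melatonin against melatonin, 21 to 26 at 1 mM, 29 to 32 at 100 µM, 34 to 38 at 10 µM, 32 to 36 at 1 µM, then 37 to 40 at 0.1 µM. Against LPS the ranges were 5 to 7 at 1 mM, 0 to 1 at 100 µM, 0 to 0 at 10 µM, 0 to 1 at 1 µM and 0 to 4 at 0.1 µM. The interaction at 1 mM gave 4 to 7 (7 without LPS with 1 mM melatonin replicate 3), the slope with LPS 5 to 8 and without LPS 0 to 3, and the rest 0. Wee1 and Spc25 at 10 µM against LPS lost their call in 8 of 11 alternatives each, and Pttg1 at 1 mM in 7 of 11.

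Same-numbered libraries did not deviate together (correlations -0.0346 to 0.0283), so the numbers do not pair them. A fit with the replicate number as a block called 1 member at 10 µM against LPS in place of 2, and moved no other count by over 1.5 times. Depth limits the rarer members: the median SE was 0.13 for Cenpf, at 3052 counts per library, and 0.74 for Espl1, at 78.6.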
